A study of Vitis vinifera with 3 samples.

Results

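CHH methylation inside gene models of ordinary length was described in berries of the grapevine Vitis vinifera, cultivar Fujiminori. The members were the CHH regions that the authors listed as differing from first growth, that lie on a numbered chromosome, and that were assigned to a gene model shorter than 40 kb (the span of an annotated gene, introns included). There were 15817 such regions of the 174174 listed between véraison and first growth, in 4848 gene models. There were 12913 of the 144341 listed between maturity and first growth, in 4360 gene models. Both sets come from whole-genome bisulfite sequencing, in which unmethylated cytosines are read as thymine. The study had 1 library for each of 3 stages, first growth at 40 days after flowering, véraison (the onset of ripening) at 65 days and maturity at 90 days. All 3 libraries came from fruits of the same cultivar, sampled through the growing season, with no treatment named in the labels. The labels describe pooled berries for RNA alone, and how many berries gave the DNA of a library is not stated in them.

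Plant DNA carries methylated cytosine in 3 sequence settings, CG, CHG and CHH, with H standing for A, C or T. CHH methylation has no symmetric partner on the opposite strand, so it cannot be copied from the parental strand and is set again after each round of DNA replication. This is done by DRM methyltransferases, which are guided by small RNAs, and by the chromomethylase CMT2, which acts mostly in long, silent transposons. Along transcribed genes CG is the usual methylated context, and CHH methylation is mostly found where a transposon or repeat lies in the gene, often in an intron. The tables give the start, end and strand of each gene model, but no exons, introns, transposons or gene functions.

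A level below is the average CHH methylation of a region in 1 library, in percent, and a gain is the later level minus the level at first growth, in percentage points. Stages have 1 library each and were not tested against each other, so a difference is one between libraries. The depth behind the levels is unknown. Intervals given for shares and densities are exact 95% intervals that cover counting error over regions. Neighbouring regions of a model are not independent, so these intervals are too narrow. Both sets share the first growth library, so their similarity is not independent support. The authors listed regions because their levels differed, so these are not average levels of genes, and models without a listed region are not in the data.

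Inside gene models nearly all listed CHH regions were more methylated after first growth, the median level being 5% at first growth and 19% at both later stages. At véraison, 15708 of 15817 members were higher (99.3%, interval 99.2 to 99.4%), beside 99.6% of all CHH regions on numbered chromosomes. Levels at first growth had a median of 5% (quartiles 2 and 9%), and levels at véraison had a median of 19% (quartiles 12 and 31%). The gain had a median of 14 points, quartiles of 9 and 22, and lay between 5 and 39 for the middle 90% of members. At maturity, 12800 of 12913 members were higher (99.1%, interval 98.9 to 99.3%), beside 99.4% of all CHH regions. Their median level at first growth was 5% (quartiles 2 and 10%) and 19% at maturity (quartiles 13 and 31%), with the same median gain of 14 points and quartiles of 9 and 22.

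Levels inside these models were slightly below those outside gene models and above those in the longest models. Outside gene models (156732 regions) the median level went from 6% to 21% at véraison, and the median gain was 15 points. In models of 40 kb or more they were 4% and 15%, with a gain of 11 points over 1616 regions. A gain of at least 20 points was found in 30.2% of members at véraison (interval 29.5 to 30.9%), beside 33.5% of all CHH regions, and in 7.49% of regions in the models of 40 kb or more (6.25 to 8.88%). At maturity the share was 30.1% of members, beside 33.4% of all CHH regions, and 7.89% in the models of 40 kb or more. On 16 of 19 chromosomes the median gain at véraison was lower inside than outside gene models, on 1 it was equal and on 2 it was higher. At maturity it was lower on 14, equal on 3 and higher on 2. The median gain of members ranged from 11 to 17 points between chromosomes at véraison and from 12 to 17 at maturity.

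Just inside the limit of 40 kb, members in models of 35 to 40 kb had a median gain of 12 points at véraison (387 regions) and 13 at maturity (254 regions). Regions just past the limit, in models of 40 to 45 kb, had 10 points (270 regions) and 11 points (242 regions). Gains of at least 20 points made up 8.27% inside and 5.56% outside the limit at véraison, and 13.4% and 6.61% at maturity.

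The gain in percentage points differed with gene length, being greatest in models of 2 to 10 kb and smaller in both shorter and longer ones, but this order did not hold for the ratio of the levels. In models of 2 to 10 kb the median level at véraison was 21%, compared with 5% earlier, and the median gain was 15 points over 7149 regions. In models of 20 to 40 kb the level was 17%, from 4%, and the gain was 12 points over 2952 regions. In models under 2 kb it was 17%, from 5%, and the gain was 13 points over 856 regions. The shortest models, under 1 kb, had 16%, from 4%, and a gain of 12 points over 307 regions. As a log2 ratio of the levels (a pseudocount of 0.01 was added to each fraction), the median change at véraison was 1.70 in models of 20 to 40 kb, 1.66 in models of 2 to 10 kb and 1.58 in models under 2 kb. At maturity it was 1.70, 1.58 and 1.58. On this scale the longest models had the highest median at both stages, and the statements on gains below are in points.

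The classes differed more in their upper range than in their medians. At véraison the upper quartile of the level was 38% in models of 2 to 5 kb and 36% in those of 5 to 10 kb, but 32% in those of 1 to 2 kb, 29% in those of 10 to 20 kb, 24% in those of 20 to 40 kb and 23% in those under 1 kb. The lower quartiles lay between 11 and 13% in every class. The upper quartiles at first growth were 12, 11, 9, 9, 7 and 8% in the same order of classes, so the upper range already differed then. A gain of at least 20 points was more frequent from a higher start, 69.0% from above 10 to 20% against 10.9% from 1 to 5% at véraison. Classes were not compared at equal levels at first growth. Gains of at least 20 points made up 38.9% of members in models of 2 to 5 kb (interval 37.1 to 40.8%) and 18.1% in models of 20 to 40 kb (16.7 to 19.5%). At maturity these shares were 36.8% (34.8 to 38.9%) and 19.8% (18.3 to 21.5%). The median gain was greater in models of 2 to 10 kb than in those of 20 to 40 kb on each of the 19 chromosomes at véraison, and likewise at maturity.

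**Figure D1:**
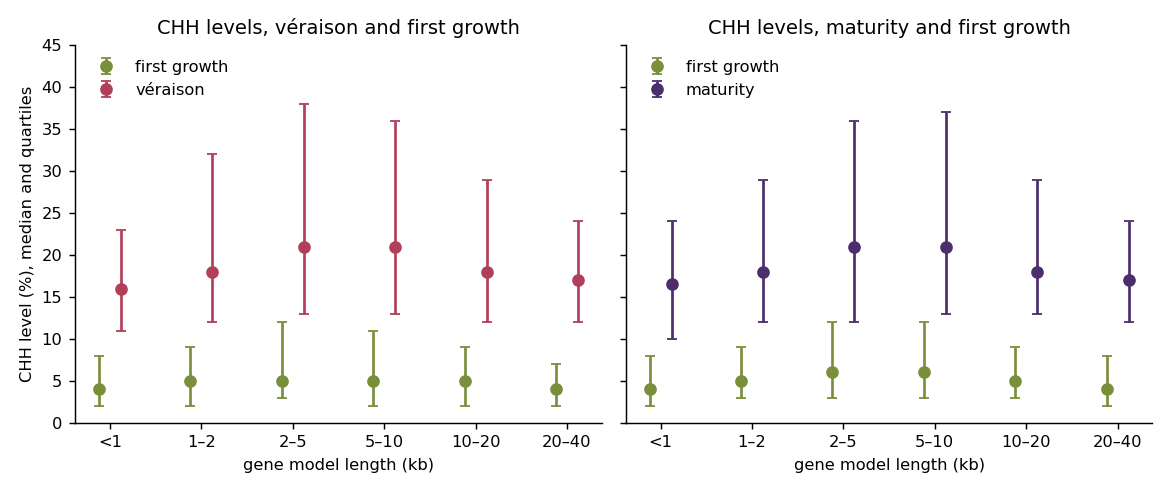
CHH level in percent at first growth and at the later stage (points are medians, bars reach the quartiles) for members in 6 classes of gene model length, at véraison in the left panel and at maturity in the right. The later levels peak at a median of 21% in models of 2 to 5 and 5 to 10 kb, and their upper quartile drops to 24% in models of 20 to 40 kb.

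Single regions near the median gain of their class show the scale of these differences. They were chosen as the members closest to the median gain with the smallest p. Those given here are 236 to 319 bp long, against a median member length of 62 bp at véraison and 60 bp at maturity, so their length is not typical. On chromosome 19, from 11697487 to 11697764 in a model of 1461 bp, the level went from 3% to 17% at véraison. The authors' deposited table gives p = 7.27e-43 for it. A region of chromosome 7, from 10090994 to 10091229 in a model of 9614 bp, went from 1% to 16%. A region of chromosome 13, from 23921970 to 23922288 in a model of 21638 bp, went from 10% to 22%. The table for maturity listed nearly the same place there, from 23921980 to 23922302, with 10% at first growth and 23% at maturity. On chromosome 4, from 9140485 to 9140738 in a model of 14447 bp, the level went from 9% to 22% at maturity.

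In the longest of these models the smaller gain in points lay in the interior. For members near an end, with 5′ and 3′ ends pooled, the share of large gains was not separated from that of shorter models. In models of 20 to 40 kb, the 124 members within 1 kb of the nearer end had a median gain of 15 points at véraison, and 34.7% of them gained at least 20 points (interval 26.4 to 43.7%). The 2199 members deeper than 4 kb had a median gain of 12 points, with 15.9% gaining at least 20 (14.4 to 17.5%). Within 1 kb of the nearer end, the share gaining at least 20 points was 38.0% in models of 2 to 5 kb (35.6 to 40.5%), 38.3% in models of 5 to 10 kb (35.2 to 41.5%) and 34.7% in models of 10 to 20 kb (30.5 to 39.1%). These intervals overlap that of the models of 20 to 40 kb, which is too wide to show equal shares. Median levels in models of 20 to 40 kb went from 5% to 19.5% near an end and from 4% to 16% deeper than 4 kb.

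The same was seen at maturity. In models of 20 to 40 kb, 35.4% of the 96 members within 1 kb of an end gained at least 20 points (25.9 to 45.8%), against 18.0% of the 1784 members deeper than 4 kb (16.3 to 19.9%). Between 4 and 5 kb from the nearer end, the share at véraison was 30.1% in models of 5 to 10 kb (176 regions, 23.4 to 37.5%), 24.6% in models of 10 to 20 kb (786 regions, 21.6 to 27.7%) and 16.7% in models of 20 to 40 kb (252 regions, 12.3 to 21.9%). At maturity these shares were 40.9% (149 regions, 33.0 to 49.3%), 24.4% (661 regions, 21.1 to 27.8%) and 24.3% (189 regions, 18.4 to 31.1%). At this distance the intervals of models of 10 to 20 and 20 to 40 kb overlapped at both stages. They also overlapped at both stages from 1 to 2 kb and from 3 to 4 kb. From 2 to 3 kb at véraison they did not. The share there was 33.1% in models of 10 to 20 kb (695 regions, 29.6 to 36.7%). It was 15.6% in models of 20 to 40 kb (212 regions, 10.96 to 21.2%). At maturity the intervals from 2 to 3 kb overlapped (28.4 to 35.7% and 17.1 to 30.3%). Models of 5 to 10 kb, however, stayed above those of 20 to 40 kb at equal distance. Their intervals did not overlap at either stage from 2 to 3, 3 to 4 or 4 to 5 kb, but did from 1 to 2 kb. From 3 to 4 kb at véraison the shares were 37.2% (33.8 to 40.7%) and 20.9% (15.9 to 26.6%). Models under 1 kb were low although all their members lie near an end, with 20.2% at véraison (15.8 to 25.1%).

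**Figure D2:**
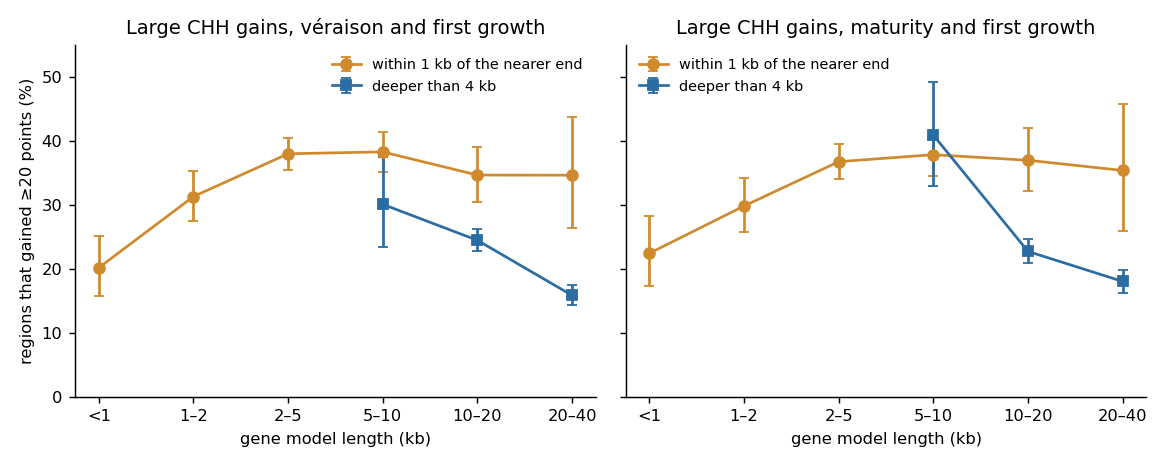
Percent of members that gained at least 20 percentage points, by gene model length, for members within 1 kb of the nearer end of the model and for members deeper than 4 kb (bars are exact 95% intervals over regions; classes with fewer than 50 regions are not drawn). Near the ends the share stays between 34.7% and 38.3% from 2 to 40 kb at véraison, while deeper than 4 kb it drops to 15.9% in models of 20 to 40 kb.

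Longer regions had higher levels and larger gains, in long and in shorter models alike. Members of at most 50 bp had a median gain of 11 points at véraison, and those over 150 bp had 25 points, from 10% at first growth to 36%. The median region length at véraison was 66 bp in models of 2 to 10 kb, 57 bp in models of 20 to 40 kb and also 57 bp in models under 2 kb. Among regions over 150 bp, the median gain was 26 points in models of 5 to 10 kb (399 regions) and 21 points in models of 20 to 40 kb (162 regions). Gains of at least 20 points made up 75.7% (71.2 to 79.8%) and 53.1% (45.1 to 61.0%) of these long regions. Among members of at most 50 bp the medians were 12 and 11 points, and the shares were 18.95% (16.7 to 21.4%) and 11.2% (9.33 to 13.2%). Spearman's correlation over the 15817 members at véraison was -0.11 between model length and gain, and 0.33 between region length and gain. These points share libraries and models, so the values are a description.

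The gain in points was larger where CHH methylation was already present at first growth, but the ratio of the levels was not. Members listed at 0% at first growth (1179, or 7.45%) had a median of 9% at véraison, and members at 1 to 5% had a median of 14%. Members above 10 and up to 20% at first growth had a median of 38% at véraison, a gain of 23 points. The 1259 members above 20% at first growth reached a median of 61% at véraison, a gain of 34 points (quartiles 28 and 40). At maturity the gains in these classes were 9, 11, 23 and 33 points. Every rise listed from above 20% was of at least 20 points, in 1218 members at véraison and 1054 at maturity. Median levels at véraison went from 3% to 14% in members at 1 to 5%, and from 27% to 61% in those above 20%. The ratio of these medians was thus larger at the lower start. The level at first growth is part of the gain, and the smallest difference that a test lists also depends on the starting level. The part of either in this order was not tested.

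Along the model, member regions were sparse at both ends, whereas levels and gains were nearly flat from 5′ to 3′. Each model was divided into 10 equal parts from its 5′ end to its 3′ end and each region was placed by its midpoint. The density at véraison was 0.244 regions per kb in the first of these parts (interval 0.231 to 0.259), 0.391 in the fifth (0.373 to 0.409) and 0.241 in the last (0.227 to 0.256). At maturity it was 0.220, 0.353 and 0.205. Densities are over the models that hold a member, and are therefore higher than over all models of the genome.

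The median level at first growth was 5% in all 10 parts at véraison, and the median level at véraison lay between 18 and 20%. The median gain was 15 points in the first and second parts and 13 or 14 points in the other 8. Gains of at least 20 points made up 34.8% of members in the first part (32.1 to 37.7%), 26.0% in the seventh (24.0 to 28.1%) and 30.9% in the last (28.2 to 33.7%). At maturity these were 34.1% (31.1 to 37.2%), 28.8% (26.4 to 31.2%) and 32.8% (29.7 to 36.0%). Position along the model and gain had a Spearman correlation of -0.03 over the members at véraison and -0.02 at maturity.

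**Figure D3:**
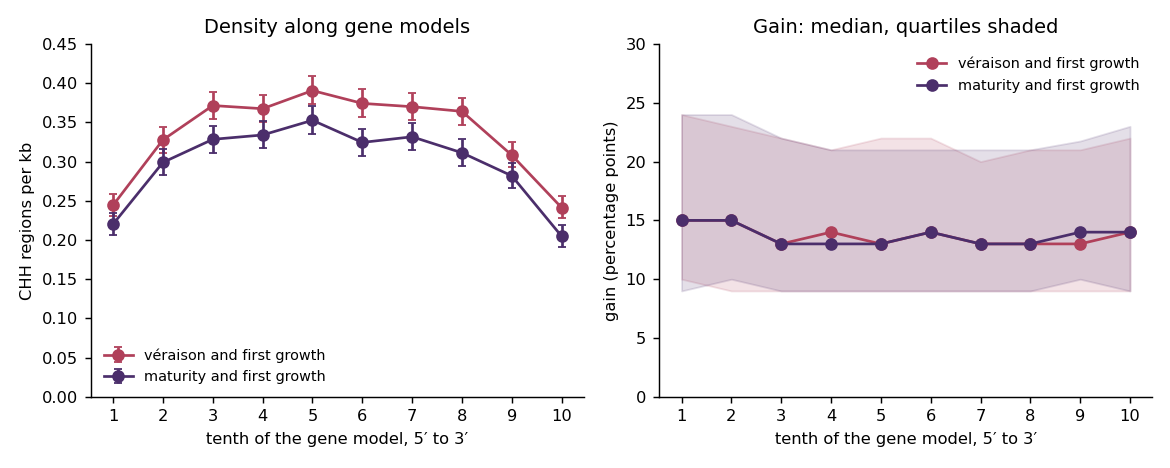
Left, CHH regions per kb in 10 equal parts of the gene model from 5′ to 3′ (bars are exact 95% Poisson intervals). Right, the gain in percentage points (line is the median, shading spans the quartiles). Density is lowest in the first and last parts, 0.244 and 0.241 regions per kb at véraison, while the median gain stays between 13 and 15 points.

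Members were also sparse at a fixed distance from either end. In the 3086 models of at least 5 kb with a member at véraison, the density was 0.201 regions per kb in the first 250 bp from the 5′ end (0.171 to 0.235), 0.312 between 500 and 1000 bp (0.285 to 0.342) and 0.386 between 2000 and 2500 bp (0.355 to 0.418). From the 3′ end inward the same distances had 0.157 (0.130 to 0.187), 0.311 (0.284 to 0.340) and 0.339 (0.311 to 0.369). Between 1000 and 1500 bp the 5′ side was the denser, with 0.349 against 0.286 regions per kb and intervals that did not overlap (0.320 to 0.380 and 0.260 to 0.314). At maturity the densities at that distance were 0.320 and 0.263, and the intervals narrowly did not overlap (0.29148 to 0.351 and 0.237 to 0.29095). In the first 250 bp of these models the median level at véraison was 22% on the 5′ side (155 regions) and 16% on the 3′ side, from 6% and 4% at first growth. At maturity these medians were 19.5% (136 regions) and 19% (91 regions).

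**Figure D4:**
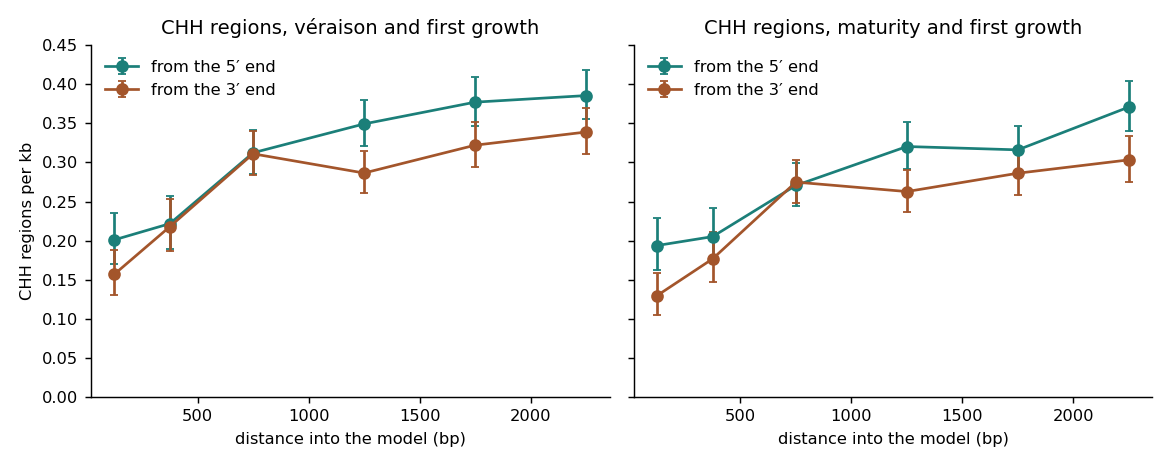
CHH regions per kb against the distance in bp from the 5′ end and from the 3′ end of gene models of at least 5 kb (bars are exact 95% Poisson intervals, points lie at the middle of each distance class). Density climbs from 0.201 and 0.157 regions per kb in the outer 250 bp to 0.386 and 0.339 between 2000 and 2500 bp at véraison. Regions across the higher-coordinate edge of a model are not counted, which lowers the outer 250 bp.

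The balance of the outermost parts depended on how regions were assigned to models. In both tables a region carried a model where its end coordinate lay inside the model, so regions that crossed the higher-coordinate edge of a model were not assigned to it. For models on the + strand this removes regions at the 3′ end, and for models on the - strand at the 5′ end. The ratio of members in the last part to members in the first part at véraison was 0.82 on the + strand (514 and 627 regions, interval 0.728 to 0.923) and 1.19 on the - strand (622 and 524 regions, 1.06 to 1.34). Among members wholly inside the model it was 0.91 (0.806 to 1.03) and 1.01 (0.893 to 1.14). At maturity the ratios were 0.76 and 1.14, or 0.85 (0.743 to 0.975) and 0.998 (0.870 to 1.14) among members wholly inside. On the + strand the median gain was 16 points in the first part and 14 in the last, and on the - strand 13 and 14, at both later stages. A difference in density between the 5′ and the 3′ outermost parts was therefore not seen on both strands.

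Members were unevenly spread over gene models. Of 4848 models at véraison, 2040 (42.1%) held 1 member, and 301 (6.21%) held 10 or more and together carried 29.3% of all members. At maturity 1997 of 4360 models held 1 member, and 215 models held 10 or more, with 25.02% of members. Within a model, neighbouring members lay close together, with a median gap of 194 bp at véraison and 219 bp at maturity. Of these neighbours, 18.3% and 17.0% overlapped the member before them, so the number of members exceeds the number of separate places.

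Longer models held more members but fewer per kb. At véraison the mean was 1.39 members per model under 1 kb, 3.25 in models of 5 to 10 kb and 5.07 in models of 20 to 40 kb, while the density was 2.15, 0.446 and 0.186 regions per kb. A listed model holds at least 1 region whatever its length, which sets a floor to the density of short models. Models with a single member had a median gain of 12 points at véraison, and models with 10 or more had a median of 14 points for their own median gain. Single-member models had a median gain of 12 points under 2 kb (333 models), 13 points at 2 to 10 kb (1158 models) and 10 points at 20 to 40 kb (159 models). At maturity these were 13 points (313 models), 13 points (1078 models) and 11 points (194 models). Single-member models under 2 kb were thus not lower than those of 2 to 10 kb at that stage, but those under 1 kb had 12 points (135 models).

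The model with the most members in both tables was VIT_11s0065g00590.t01 on chromosome 11, from 14471140 to 14483111 on the + strand, 11.97 kb long. It held 52 members at véraison, which covered 30.2% of its length, and 50 at maturity, which covered 30.5%. Levels at first growth ranged from 0 to 16% in the 52 members (median 6%), and at véraison from 9 to 34% (median 20.5%). All 52 were higher at véraison, by 6 to 21 points (median 14, SD 3.94 over the members). At maturity all 50 were higher, by 7 to 24 points (median 13.5). Its members were spread evenly, with 25 on the 5′ side of the model's midpoint and 27 on the 3′ side at véraison.

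A neighbouring model on the same strand, from 14458935 to 14467862, was almost as dense. It held 33 members at véraison and 37 at maturity, all higher, with median gains of 12 and 11 points. A further model on this chromosome, from 14802396 to 14819846, held 33 and 30 members and smaller gains, with a median of 8 points at véraison (4 to 23). On chromosome 14, from 5312595 to 5330905, a model of 18.3 kb held 45 members at véraison. Its levels were more mixed, from 5 to 90% at véraison, and its gains ranged from 5 to 48 points, with 34 of the 45 members on the 3′ side of its midpoint.

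Models with many members differed more in their typical gain than the median alone shows. Among the 301 models with 10 or more members at véraison, the median gain of a model ranged from 4 to 44 points (quartiles 11 and 19). The SD of gains within such a model had a median of 6.33 points, and the SD between the medians of the models was 7.12 points. At the low end, a model on chromosome 8, from 14439485 to 14447364, held 15 members that gained only 3 to 6 points, from 2 to 5% at first growth to 5 to 11% at véraison, and 14 of them lay on the 3′ side of its midpoint. At the high end, a model on chromosome 15, from 19199340 to 19206837, held 11 members that gained 36 to 52 points, with levels of 1 to 28% at first growth and 37 to 75% at véraison. At maturity the highest was a model on chromosome 3, from 5887915 to 5897179. The median level of its 11 members went from 37% to 75%.

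Few members were less methylated after first growth. There were 109 of 15817 members at véraison, in 100 models, beside 629 of all 174165 CHH regions (0.361%). At maturity there were 113 of 12913 members, also in 100 models, beside 836 of all 144333 CHH regions (0.579%). At both stages the share of lower regions was larger among members than among all CHH regions. The median level of the lower members went from 15% to 1% at véraison, and from 16% to 1% at maturity. The model with the most lower members at véraison was VIT_06s0004g00980.t01 on chromosome 6, from 1091784 to 1092561, which is 0.778 kb long. Its 3 members had 13 to 14% at first growth and 1 to 2% at véraison. At maturity it was VIT_07s0141g00170.t01 on chromosome 7, from 116657 to 126811, whose 3 members had 11 to 93% at first growth and 0 to 4% at maturity.

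Single regions at the extremes were listed as going from unmethylated to fully methylated or the reverse. At véraison 4 members gained 100 points, and the one with the smallest p was a region of 115 bp on chromosome 14, from 23792910 to 23793024. The authors' deposited table gives p = 4.01e-07 for it. At maturity 1 member gained 100 points, a region of 41 bp on chromosome 16, from 17021638 to 17021678. The authors' deposited table gives p = 1.83e-07 for it. Each of these was the only member of its model. The largest decrease at véraison was on chromosome 18, from 4881358 to 4881416, with 100% and 0%, and at maturity on chromosome 7, from 123505 to 123564, with 93% and 4%.

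A small number of members could be read in all 3 libraries because both tables listed them at identical coordinates. In these 236 regions of 215 models the medians were 4% in the first growth library (quartiles 3 and 8%), 15% in the véraison library (10 and 22.3%) and 15% in the mature library (10 and 22%). The level differed by at most 5 points between véraison and maturity in 92.8% of them. In the 41 regions of models of 20 to 40 kb the medians were 5, 16 and 17%, and in the 60 regions of models of 5 to 10 kb they were 5, 16 and 16%. Identical ends favour places where véraison and maturity were alike, and the 2 tables share the first growth library, so these regions do not stand for all members.

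**Figure D5:**
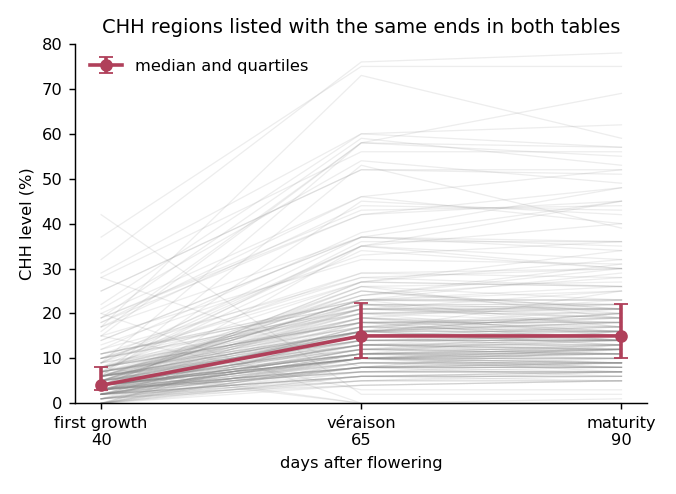
CHH level in percent in the first growth, véraison and mature libraries, at 40, 65 and 90 days after flowering, for the 236 members listed with the same ends in both tables (grey lines are regions, the red line is the median with quartiles). The median goes from 4% at first growth to 15% at véraison and 15% at maturity.

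The direct comparison of maturity with véraison listed far fewer CHH regions, in such models and elsewhere, and most were lower at maturity. On numbered chromosomes 23823 were listed, beside 174165 between véraison and first growth. There were 2408 regions in 1686 models shorter than 40 kb, of which 771 were higher at maturity (32.0%, interval 30.2 to 33.9%), beside 31.2% of all CHH regions in that table. Outside gene models it was 31.0% of 21290 regions. The other 1637 were lower, beside 68.8% of all CHH regions in that table. Among lower regions the median level was 28% at véraison and 7% at maturity, and among higher regions 5% and 24%. In models of 20 to 40 kb, 38.5% of 361 regions were higher (33.5 to 43.7%), and in models of 5 to 10 kb 30.9% of 729 (27.5 to 34.4%).

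Few CHH regions, inside models or elsewhere, coincided with regions listed in the other contexts. At véraison 67 members overlapped a CG region that was lower than at first growth and 9 overlapped a CG region that was higher, or 0.424% and 0.0569% of members, beside 0.416% and 0.0178% of all CHH regions. The 67 had a median gain in CHH of 20 points, from 7 to 25%, and 6 of them were lower in CHH too. For CHG, 53 members overlapped a region higher at véraison and 39 a region lower, with median CHH gains of 11 and 10 points. These were 0.335% and 0.247% of members, beside 0.214% and 0.121% of all CHH regions. Of the 39, 9 were lower in CHH too, and of the 53, 0 were, against 109 of all 15817 members. At maturity 73 members overlapped a lower CG region, with a median gain of 20 points, and 4 a higher one. Of the 73, 10 were lower in CHH too, as were 12 of the 41 members that overlapped a lower CHG region at maturity. Over whole models, 5.32% of the 4848 models with a member at véraison also held a lower CG region, and the 1105 members in those models had a median gain of 17 points. Lower CHG regions were found in 12.7% of the models, where 2546 members had a median gain of 12 points, and higher CHG regions in 8.89%, where 1741 members had 13 points. The same shares in models without a member were not examined.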

How the data were processed

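Per the labels' protocols, fruit DNA was sonicated, given adaptors, converted with bisulfite and read as pairs on an Illumina sequencer. The submitters' processing notes name BSMAP 2.73. How regions were called, which coverage they needed, and the genome build are not given in the labels or headers. The levels deposited by the authors are fractions (0 to 1, per the file headers), multiplied to percent here, in steps of 1 point. The deposited p-values are called a chi-square statistic in the file notes, but none exceeds 0.00988 among members, so they were read as p-values, with no adjustment stated. No counts or coverage were used, so the depth is unknown. No test was made between stages.

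The 9490 listed model identifiers were looked up among 29591 genes of a reference gene list and 0 matched, so no gene names are given. Coordinates are as deposited. Members and groupings were chosen with earlier results of these data known. Named models are, per table, those with most members and most lower members, with identifiers for these alone; single regions are those nearest a class's median gain, and the largest gain and decrease. Models with extreme medians and further crowded models were picked with their values in view. The calculations (Python 3.11.15, pandas 2.3.3, scipy 1.17.1) were tested on simulated data. Log2 ratios by length class and classes at the same distance from an end were added after seeing the data. Alternatives varied region size, p, length, assignment, gene length limit, position parts and scale.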

Additional observations from a re-analysis of the deposited data

Results flagged for a closer look

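Regions that cross the higher-coordinate edge of a listed gene model shorter than 40 kb were not given that model in the deposited tables, and are a signal outside the member set. There were 114 at véraison and 92 at maturity, compared with 155 and 119 that cross the lower-coordinate edge and were all given the model. All 114 were higher at véraison, the median level going from 6% to 20.5%, with a median gain of 16 points. All 92 were higher at maturity, with a median gain of 17 points, the same median as for the 119 across the lower edge at maturity.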

How the results depend on the processing

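Of 136 recomputed values, 27 moved outside the interval of the reported value (95%, or wider for differences between medians), and 0 reversed a direction whose interval excluded no difference. The other 109 include 6 values on the log2 scale, of which 3 changed sign where the interval in points included 0. For a difference between medians, in points or log2, the interval runs between opposite ends of the 95% intervals of the medians. It is wider than a 95% interval of the difference, so fewer of these values count as moved. Alternatives on strand, edge-crossing regions, overlapping members and crowded models were chosen after seeing the data. No paired analysis was possible because each stage has 1 library, and no library could be left out for the same reason. For véraison and maturity respectively, the share of members higher was 99.5 and 99.4% among regions of at least the median length, 98.7 and 98.6% with 1 region per model, and 99.1 and 98.9% in models with fewer than 10 members. The median gain was 22 and 21 points among differences of at least the median size, and 17 and 17 among longer regions. The ratio of density in the last to the first part was 0.82 and 0.76 on the + strand and 1.19 and 1.14 on the - strand (0.99 and 0.93 on both), and 1.03 at maturity with 1 region per model. The median gain in models of 20 to 40 kb minus that under 2 kb was -1 and -1 points, -2.5 at véraison among longer regions and -3 at maturity among larger differences. On the log2 scale it turned to 0.12 at both stages (intervals 0.041 to 0.21 and 0.030 to 0.15). The last minus the first part turned from -1 point to 0.037 at véraison (-0.079 to 0.15). The density ratio of these classes was 0.131 and 0.122, and 0.105 and 0.0999 among larger differences, 0.0957 and 0.0997 among longer regions, 0.0790 and 0.0806 in models with fewer than 10 members, 0.119 and 0.107 on the + strand, and 0.145 and 0.139 on the - strand. Depth is unknown, so the number of reads behind a level of 0 or 100% is not known either.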
